A study of Homo sapiens with 10 samples.

Results

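DLD-1 is an established human colorectal cancer cell line. Its unmodified, wild type form was compared with 3 control clones that had been transfected with an empty vector. These 4 samples, 1 array each, were chosen by their sample titles from the 10 arrays of the series. The titles number the empty vector samples as biological replicates 1 to 3 and give no clone number. They are called clones 1 to 3 here. The wild type cells were not transfected and grew without puromycin. The empty vector clones were transfected, grew out of single cells according to the design text, and were kept in puromycin, the drug that selects cells carrying the vector. Transfection, cloning from a single cell and puromycin therefore changed together and cannot be told apart. Neither group carried a hairpin RNA against LMNB1, the gene that the rest of the series knocks down, and both were labelled as negative controls. The other 6 arrays are cells with such hairpins, also under puromycin. Construct V2LHS_62673 gave clones 8, 9 and 12 with 1 array each. Construct V2LHS_62675 has 3 arrays, which the descriptions assign to repeats of clone 2 and the titles to clone 12. All cells grew in RPMI with serum, and levels are the deposited log2 values of total RNA depleted of ribosomal RNA.

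A clone founded by a single cell carries the state of that cell and of its descendants, while an unmodified culture is a mixture of many lineages. INSIG1 and DDIT4, which marked this comparison, belong to pathways that cells adjust to nutrients. INSIG1 sits in the endoplasmic reticulum and holds back the SREBP transcription factors, which switch on cholesterol and fatty acid synthesis when sterols are low. Its own gene is one of their targets. DDIT4, also called REDD1, restrains the growth kinase complex mTORC1, and is induced by lack of oxygen, glucocorticoids and the transcription factor ATF4, which responds to amino acid shortage and other stress. In dividing cells, genes of DNA replication, mitosis and ribosome assembly rise and fall with proliferation.

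The array medians of the 4 samples were 7.34 in wild type and 7.35 to 7.41 in the empty vector clones. Over all probes the wild type array correlated with the empty vector arrays at 0.988 to 0.991, and the empty vector arrays with each other at 0.992 to 0.994. Its highest correlation with any array was 0.993, with array 3 of construct V2LHS_62675. Those 3 arrays were not alike, since arrays 2 and 3 correlated at 0.994 with each other and array 1 at 0.988 with each of them. Clone 8 stood apart from the other 9 arrays at 0.915 to 0.926, so it was left out of the second comparison and of the plots. The only probe of LMNB1 also names PCIF1. Its level was 9.52 in wild type and 8.93, 9.17 and 8.84 in the empty vector clones, against 7.45 to 7.79 on the 6 hairpin arrays. Neither control thus had the low level of the hairpin cells. Genes were tested if their mean reached a log2 level of 5.87, the 25th percentile of all probes, called the filter level here. Of 12 markers of colon epithelium, only KRT20 lay under it in all 4 samples, and the summed log2 level of the 12 was 110.95 in wild type and 108.54 to 111.115 in the clones. EPCAM, an epithelial adhesion molecule, stood at 11.79 in wild type and 11.32 to 11.45 in the clones. The leukocyte genes PTPRC and CD3E, the fibroblast genes LUM and DCN and the endothelial genes PECAM1 and KDR lay under that level in all 4 samples, which is 2 of 5, 2 of 6 and 2 of 4 markers. The others did not. COL1A1 was at 7.34 to 7.63, COL1A2 at 7.00 to 7.14, PDGFRB at 6.88 to 7.14 and VWF at 6.37 to 6.69. The part of other cell types in the results was not tested. Summed levels in wild type and over the clones were 26.06 and 26.66 to 27.23 for the 5 leukocyte markers, 36.62 and 35.57 to 36.55 for the 6 of fibroblasts, and 22.53 and 22.44 to 23.25 for the 4 of endothelium.

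The genes that were lower in wild type cells included members of sterol and fatty acid synthesis and of the amino acid stress response, and those that were higher included members of DNA replication, mitosis and ribosome assembly. Of 11204 genes tested, 355 were higher in wild type (3.17%) and 399 were lower (3.56%) at an adjusted p under 0.05, with limma and Benjamini-Hochberg adjustment. A difference of at least 1 on the log2 scale was reached by 12 of the higher and 41 of the lower genes. The median difference over all genes tested was -0.0071. Below, rose and fell mean called higher or lower in wild type than in the clones, not a change over time. The 3 clones spanned a median of 0.19 per gene, and the wild type array lay above their range in 3369 genes, below it in 3414 and inside it in 4421. It was above the highest clone by 0.5 or more in 138 genes (1.23%) and below the lowest by as much in 189 genes (1.69%). A gap of 1 or more was seen in 4 genes above the clones and in 17 below. In 27 of the lower genes the wild type value, and in 4 of the higher genes the clone mean, was under the filter level, so these genes entered the test through the group in which they are high. The wild type side has 1 array, and the test assumes that it varies as the clones do; an exact permutation test of 1 sample against 3 has 4 regroupings and cannot go below p = 0.25. When the spread was taken from a fit of all 4 groups with clone 8 in it, no gene passed in either direction (0 higher and 0 lower by limma, 295 genes at an unadjusted p under 0.05), and without clone 8 that fit called 190 higher and 216 lower.

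**Figure D1:**
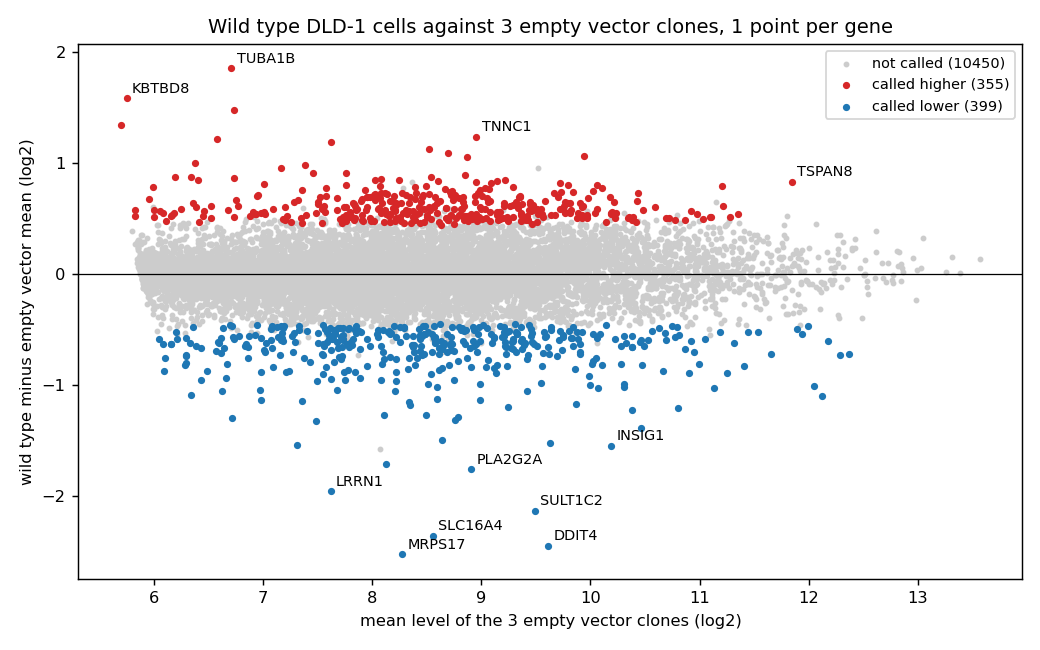
Difference between wild type and the mean of the 3 empty vector clones (vertical axis, log2) against that mean (horizontal axis, log2), with 1 point for each of 11204 genes; red points were called higher (355) and blue points lower (399). The differences furthest from 0 lie on the lower side, where MRPS17, DDIT4, SLC16A4 and SULT1C2 are more than 2 below the clones.

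The genes with the largest gap below the clones were of mixed function. MRPS17, a protein of the small subunit of the mitochondrial ribosome, stood at 5.74 in wild type and at 8.57, 8.55 and 7.70 in the empty vector clones. Its difference was -2.53 ± 0.24 (SE; limma adjusted p = 2.51e-05), with wild type under the filter level, so the gene was tested through its level in the clones and no fold is given. The hairpin arrays ran from 7.43 to 9.20, so the wild type array was alone at the low end of all 10 arrays. LRRN1, a membrane protein with leucine-rich repeats, stood at 5.66 in wild type and at 7.80, 7.48 and 7.58 in the empty vector clones. It differed by -1.96 ± 0.15 (limma adjusted p = 3.12e-06), and it too was tested through its level in the clones. Here the hairpin arrays, at 5.59 to 5.96, lay beside wild type and the empty vector clones were the ones apart. Wild type and 4 of the 6 hairpin arrays were under the filter level. DDIT4 was 7.17 in wild type and 8.98, 9.78 and 10.08 in the clones. The difference was -2.45 ± 0.26, a 5.46-fold lower level (limma adjusted p = 7.86e-05). No clone came near wild type, and clone 1 was the lowest of the 3. With a trended, robust prior, which shrinks an unusually wide spread less, the adjusted p values by limma were 0.236 for DDIT4, 0.178 for MRPS17 and 0.381 for SLC16A4. On the hairpin arrays DDIT4 ran from 7.16 on array 1 of construct V2LHS_62675 to 9.86 in clone 8, which covers the wild type value.

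SULT1C2, a sulfotransferase of the cytosol, was 7.36 in wild type and 9.05, 9.67 and 9.75 in the clones. It was 4.38-fold lower (limma adjusted p = 2.51e-05). The 3 arrays of construct V2LHS_62675 were lower still, at 6.60 to 6.93. PLA2G2A, a secreted phospholipase, was 7.15 in wild type and 9.01, 9.11 and 8.61 in the clones. It was 3.38-fold lower (limma adjusted p = 2.51e-05), and the hairpin arrays, at 6.25 to 7.24, lay around the wild type level. SLC16A4, of the monocarboxylate transporter family, was 6.19 in wild type and 7.61, 8.96 and 9.08 in the clones. It was 5.13-fold lower (limma adjusted p = 0.00115). ALDH7A1, an aldehyde dehydrogenase of lysine breakdown, was 7.50 in wild type and 8.72, 8.77 and 8.87 in the clones. That is 2.44-fold lower (limma adjusted p = 5.53e-05), and like MRPS17 it was lower than on any of the 6 hairpin arrays, which began at 8.24. The other members of this group were LURAP1L, TMPRSS3, a membrane serine protease, and MBNL2, a regulator of RNA splicing, with INSIG1 and SLC7A11 among their pathways below. They differed by -1.49, -1.32 and -1.21. With the trended, robust prior LURAP1L did not pass either (limma adjusted p = 0.0667).

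The 12 genes with the largest gap above the clones were also of mixed function, and 3 of them act in ribosome assembly or its guide RNAs. How common such genes are among all genes tested was not counted. KBTBD8, an adaptor that brings substrates to a cullin ubiquitin ligase, was 7.33 in wild type and 5.87, 5.88 and 5.50 in the clones. The difference was 1.58 ± 0.16 (SE; limma adjusted p = 3.53e-05), with the clone mean under the filter level, so the gene was tested through its wild type level and no fold is given. Wild type was also above the 6 hairpin arrays, which reached 6.66. TNNC1, a calcium-binding troponin of slow and heart muscle, was 10.19 in wild type and 8.86, 9.10 and 8.90 in the clones. It was 2.36-fold higher (limma adjusted p = 9.65e-05). Arrays 2 and 3 of construct V2LHS_62675 were higher than wild type, at 10.68 and 10.53, and array 1 was at 9.56. The ribosome assembly factor RRP36 was 9.64 in wild type and 8.73, 8.50 and 8.32 in the clones, and was 2.19-fold higher (limma adjusted p = 0.000565). PES1, which processes ribosomal RNA, was 8.87 against 8.05, 8.06 and 7.95, a 1.80-fold higher level (limma adjusted p = 0.00147). NUFIP1, which helps assemble the particles that modify ribosomal RNA, was 9.79 against 8.83, 8.61 and 8.65 (limma adjusted p = 0.00032). All 3 lay well outside the range of the empty vector clones. On the hairpin arrays NUFIP1 was 9.24 to 9.69, above the empty vector clones and under wild type. RRP36 ran from 7.91 to 9.51 there, and PES1 from 8.08 to 9.05, which covers the wild type value of PES1.

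The ATPase ABCF2 (9.92 in wild type; 8.93, 8.91 and 8.77 in the clones), the transporter subunit SLC51B (8.82; 7.25, 7.84 and 7.79) and the kallikrein peptidase KLK10 (8.36; 7.34, 7.28 and 7.52) were higher by 1.05, 1.19 and 0.98. The non-coding genes YWHAH-AS1 and CEBPA-DT were higher by 1.22 and 1.34, CEBPA-DT with a clone mean under the filter level. TUBA1B, an alpha tubulin, was 8.56 in wild type and 7.49, 6.87 and 5.76 in the clones. It and the bitter taste receptor TAS2R50, at 8.21 against 7.28, 6.64 and 6.27, belong to families of near-identical genes, so their probes may read several members. Both had a wide spread between clones, and with the trended, robust prior their limma adjusted p values were 0.514 and 0.358. With quantile normalization TUBA1B did not pass either (limma adjusted p = 0.0582).

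**Figure D2:**
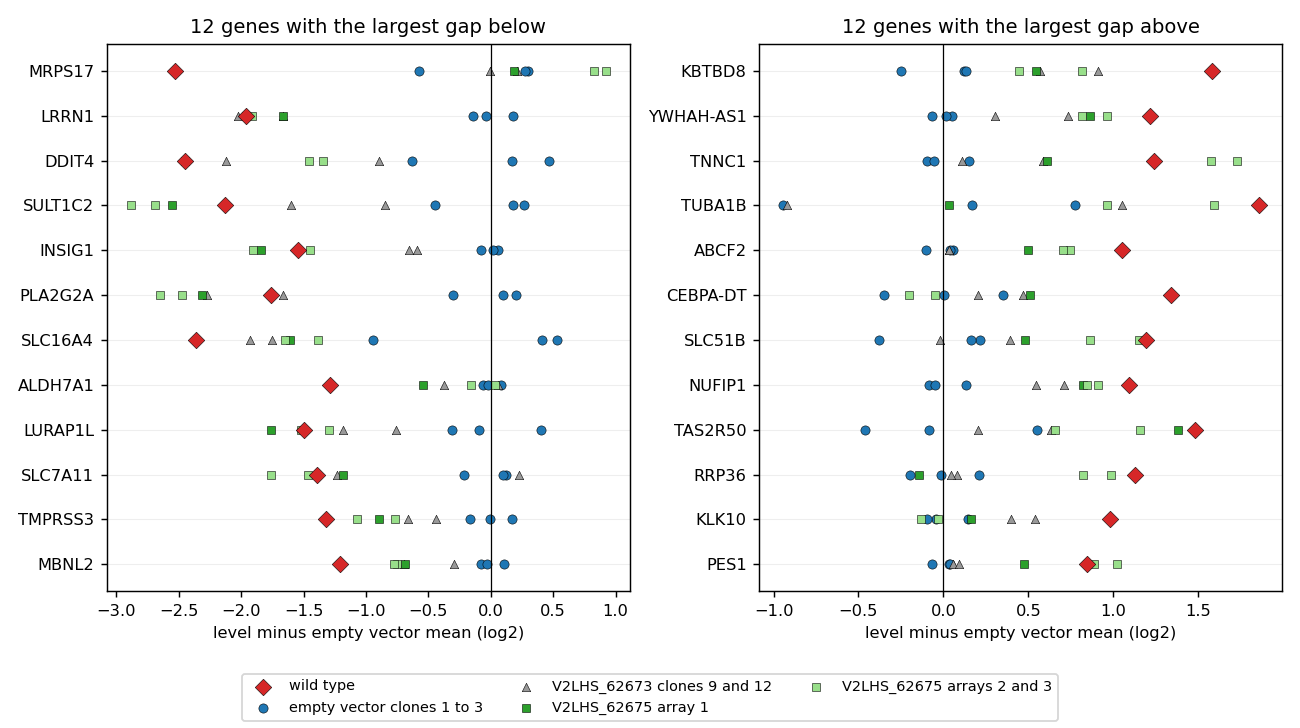
Level on each array minus the mean of the 3 empty vector clones (log2) for the 12 genes with the largest gap below the clones (left) and above them (right) among those tested; clone 8 is not drawn. Wild type (red diamonds) is outside the clones (blue circles) in every gene shown, and in several, such as LRRN1 and PLA2G2A, the hairpin arrays lie near wild type, while MRPS17 and ALDH7A1 are low in wild type alone.

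Genes that fell in wild type were found at each stage of the sterol pathway. Of 20 tested genes of cholesterol synthesis and uptake, 7 fell below the clones and none was higher, and the list median was -0.23, against -0.0071 over all genes. The promoters of a regulator and an enzyme are shown because both are lower here and share the CCAAT box, a site that works beside the SREBP element in sterol-regulated promoters. INSIG1 lies at chr7:155297628-155297927 (+) and MSMO1 at chr4:165327419-165327718 (+) in RefSeq's GRCh38.p14, in windows of 300 bases around the start of transcription, with CCAAT on either strand in capitals.
INSIG1: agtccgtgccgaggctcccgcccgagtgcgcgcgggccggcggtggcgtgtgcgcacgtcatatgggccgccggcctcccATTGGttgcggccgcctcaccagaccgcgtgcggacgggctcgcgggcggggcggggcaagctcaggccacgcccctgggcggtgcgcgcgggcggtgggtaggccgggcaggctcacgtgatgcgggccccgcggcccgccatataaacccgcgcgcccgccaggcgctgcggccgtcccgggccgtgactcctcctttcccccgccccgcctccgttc
MSMO1: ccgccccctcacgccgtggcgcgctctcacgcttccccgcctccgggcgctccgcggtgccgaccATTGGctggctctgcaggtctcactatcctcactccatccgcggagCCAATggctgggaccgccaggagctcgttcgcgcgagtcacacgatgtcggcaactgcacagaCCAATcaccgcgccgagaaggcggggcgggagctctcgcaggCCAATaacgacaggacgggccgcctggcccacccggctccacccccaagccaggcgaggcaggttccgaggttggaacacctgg
The INSIG1 window holds 1 such match and the MSMO1 window 4. CCAAT was found in 15 of 19 tested cholesterol genes with a promoter in the table (78.9%), in 36.3% of the 9067 tested genes with one and in 35.7% of all 27305. Among the 7 called lower it was in 6 (85.7%), IDI1 having none, which is close to the share of the whole list. Genes without a call, such as MVK and NSDHL, hold it too. The sterol element TCACNCCAC was found in 0 of the 19 windows, and in 1.10% of those of the tested genes, which says only that these letters are not in these windows.

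INSIG1 stood at 8.64 in wild type and at 10.11, 10.25 and 10.21 in the empty vector clones. It was 2.92-fold lower, with a difference of -1.55 ± 0.13 (SE; 95% interval -1.83 to -1.27; limma adjusted p = 1.36e-05). The clones differed by little (SD 0.07, n = 3), and wild type was far under them. On the arrays of construct V2LHS_62675 INSIG1 was 8.34, 8.74 and 8.28, around the wild type level, and in clones 9 and 12 of V2LHS_62673 it was between, at 9.60 and 9.53. Among the mevalonate steps, HMGCS1, which makes HMG-CoA, was 10.19 in wild type and 10.94, 10.82 and 10.83 in the clones (limma adjusted p = 0.00646). IDI1, which isomerises the isoprene unit, was 9.84 against 10.70, 10.43 and 10.24 (limma adjusted p = 0.0306). Both were below each clone, IDI1 with the smaller gap. The sterol steps held 3 called genes. TM7SF2, a sterol reductase, was 8.04 against 9.24, 9.17 and 9.30, a difference of -1.20. MSMO1, an oxidase of sterol methyl groups, was 11.04 against 12.18, 12.12 and 11.84, a difference of -1.01. DHCR7, the reductase of the last step, was 9.83 against 10.32, 10.44 and 10.39. Of the carriers, STARD4, which moves cholesterol between membranes, was 8.25 against 8.86, 8.99 and 9.02. All 7 lay outside the clones, while SQLE, the squalene epoxidase, did not pass at -0.44 (limma adjusted p = 0.0726). SCAP, EBP, PMVK and NPC1L1 had small differences above 0 that did not pass.

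All 14 tested genes of fatty acid synthesis had differences below 0, with a median of -0.41, and 5 of them fell. SCD, the desaturase that makes oleate, was 11.55 in wild type and 12.28, 12.34 and 12.23 in the clones. It differed by -0.73 ± 0.13 (limma adjusted p = 0.00402). FASN, the fatty acid synthase, was 9.04 against 9.38, 9.79 and 9.62 (limma adjusted p = 0.039). FADS1, a desaturase of long polyunsaturated chains, was 7.24 against 7.79, 7.85 and 7.83. ACSS2, which makes acetyl-CoA from acetate, was 7.98 against 8.52, 8.42 and 8.59. PNPLA3, a lipid droplet enzyme under SREBP control, was 6.57 against 7.21, 7.35 and 7.27. In each the wild type value was lower than any clone's. SREBF1, which encodes SREBP-1, differed by -0.54 and did not pass (limma adjusted p = 0.0738). The list medians of the 3 arrays of construct V2LHS_62675 relative to the empty vector mean were -0.35, -0.36 and -0.34, close to the wild type value of -0.41, while the empty vector clones themselves stood at -0.06, 0.05 and 0.00. In the cholesterol list those arrays were at -0.31, -0.22 and -0.28. Clones 9 and 12 of V2LHS_62673 were at -0.02 and -0.08 in the cholesterol list, near the empty vector clones, and at -0.18 and -0.26 in the fatty acid list. In the fit of 4 groups without clone 8 the called genes were 5 in the cholesterol list and 2 in the fatty acid list, and with median centring the latter had 3.

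Of 30 tested genes of the amino acid and ATF4 stress response, 10 fell and none was higher, with a median of -0.32. The promoters of CHAC1 and ASNS are shown because both are lower here and hold the amino acid response element searched as TGATGNAA, the composite site that ATF4 binds with C/EBP partners. CHAC1 is at chr15:40953221-40953520 (+) and ASNS at chr7:97872359-97872658 (-), again from RefSeq on GRCh38.p14, with the match on either strand in capitals.
CHAC1: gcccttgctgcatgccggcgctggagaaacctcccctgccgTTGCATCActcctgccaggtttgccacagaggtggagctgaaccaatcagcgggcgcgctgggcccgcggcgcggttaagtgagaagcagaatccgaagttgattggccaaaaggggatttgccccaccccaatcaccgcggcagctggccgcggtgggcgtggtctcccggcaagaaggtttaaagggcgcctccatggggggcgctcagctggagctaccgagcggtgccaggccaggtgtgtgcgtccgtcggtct
ASNS: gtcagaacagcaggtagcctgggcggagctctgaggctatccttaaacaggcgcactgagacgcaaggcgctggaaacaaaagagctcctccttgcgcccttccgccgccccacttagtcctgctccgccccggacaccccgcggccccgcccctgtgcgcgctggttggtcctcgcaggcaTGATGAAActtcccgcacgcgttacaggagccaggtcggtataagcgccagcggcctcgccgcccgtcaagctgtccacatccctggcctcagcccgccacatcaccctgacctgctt
Each window has 1 match. It was found in 4 of 26 tested genes of the list with a promoter in the table (15.4%), against 1.78% of all tested genes with one and 3.67% of all promoters. Among the 9 called lower only the 2 shown had it (22.2%). The remaining holders, ATF3 and SLC3A2, were not called.

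Of 8 signalling targets of ATF4 4 fell, DDIT4 among them. CHAC1, which degrades glutathione, was 7.45 in wild type and 8.52, 8.78 and 8.98 in the clones. It fell by 1.31 on the log2 scale (limma adjusted p = 0.000221). TRIB3, a pseudokinase that restrains ATF4 signalling, was 9.21 against 9.64, 9.73 and 9.79, and VLDLR, a lipoprotein receptor, was 5.98 against 6.53, 6.58 and 6.82. Wild type was under each clone in all 3, and in DDIT4. Among the transcription factors, DDIT3 (CHOP) was 7.85 against 8.17, 8.76 and 8.72 (limma adjusted p = 0.0312), and ATF4 itself did not pass, at -0.21 (limma adjusted p = 0.466). Of 9 enzymes of amino acid synthesis 3 fell. ASNS, the asparagine synthetase, was 10.19 against 10.64, 11.12 and 11.23. PHGDH, the entry enzyme of serine synthesis, was 10.58 against 11.16, 11.58 and 11.48. PCK2, the mitochondrial form of a gluconeogenic enzyme, was 7.75 against 8.41, 8.66 and 8.76. In these genes clone 1 was the lowest of the empty vector clones and the nearest to wild type. The transporters were divided. SLC7A11, which exchanges cystine for glutamate, was 9.08 against 10.25, 10.59 and 10.56, a 2.62-fold lower level (limma adjusted p = 7.86e-05). SLC38A2, a carrier of small neutral amino acids, was 10.94 against 11.63, 11.65 and 11.68, whereas SLC7A5 and SLC3A2, the subunits of a large amino acid exchanger, differed by -0.08 and -0.02. The list medians of the hairpin arrays were 0.16, -0.08 and -0.52 in clones 8, 9 and 12 of V2LHS_62673, and -0.34, -0.12 and -0.15 in V2LHS_62675. In the fit of 4 groups without clone 8 the list had 4 called genes.

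Related stress lists had fewer calls. In the fits without empty vector clone 1 or without clone 2 named from here on, all genes shared a common spread. A call gained or lost there depended on the size of the difference only, not on the gene's own spread. Of 18 cytosolic aminoacyl-tRNA synthetases, 2 fell, AARS1 by 0.57 and SARS1 by 0.55, with a list median of -0.17. Without empty vector clone 2, SARS1 did not pass (limma adjusted p = 0.0795), and without clone 1 the list had 4 called genes. In the unfolded protein response of the endoplasmic reticulum, 1 of 22 genes fell, HERPUD1, a component of protein disposal from that organelle, at 9.66 against 10.46, 10.52 and 10.44. That share is near the 3.56% of all genes tested that were lower. The chaperone HSPA5 differed by -0.35 and did not pass (limma adjusted p = 0.16), and the list median was -0.06. Of 24 hypoxia and glycolysis genes 3 fell, all of them hypoxia targets, NDRG1, the growth factor VEGFA and the mitophagy receptor BNIP3L, by 0.92, 0.59 and 0.60. None of the 13 glycolysis genes passed with limma, and 4 had an unadjusted p under 0.05. Without clone 3 the calls of NDRG1 and VEGFA were lost (limma adjusted p = 0.0665 and 0.0554). With median centring none of the 3 passed, BNIP3L at a limma adjusted p of 0.0533. Beside DDIT4, the FOXO-linked genes SESN3, a brake on mTORC1, and CCNG2, a cyclin of resting cells, fell. SESN3 was 5.57 in wild type, under the filter level, and 7.05, 6.38 and 6.46 in the clones, through which it was tested. CCNG2 was 6.63 against 7.53, 7.88 and 7.63. On the hairpin arrays other than clone 8 SESN3 was 5.22 to 5.95, also under the empty vector clones. Without clone 1 the list of nutrient and glucocorticoid genes had 5 called genes, and with the trended, robust prior 1.

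**Figure D3:**
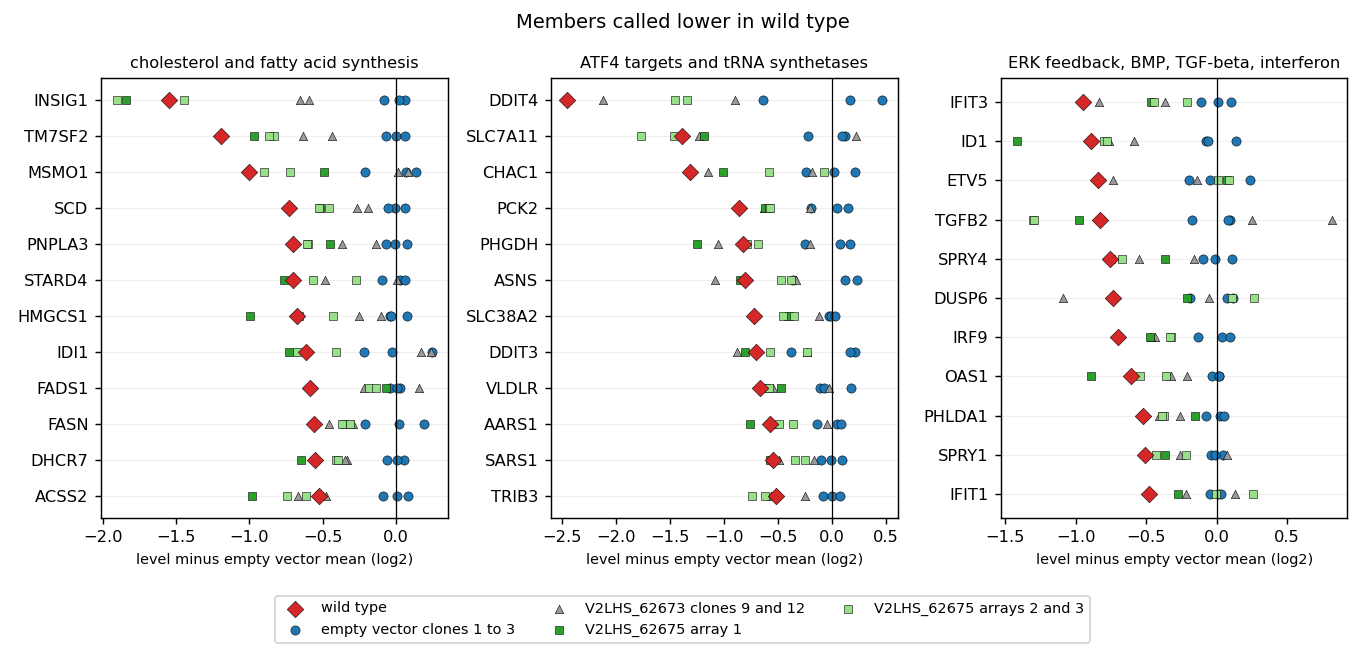
Level on each array minus the mean of the 3 empty vector clones (log2) for the genes called lower in wild type in the lists of sterol and fatty acid synthesis (left), ATF4 targets and tRNA synthetases (middle), and ERK feedback, BMP and TGF-beta signalling and interferon response (right); clone 8 is not drawn. Wild type is left of all 3 empty vector clones in each gene, and INSIG1 and DDIT4 have the differences furthest from 0 in their panels, at -1.55 and -2.45.

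Feedback genes of ERK signalling were lower as well. Of 11 genes that ERK signalling induces to limit itself, 5 fell: DUSP6, a phosphatase of ERK, the inhibitors SPRY1 and SPRY4, the transcription factor ETV5 and PHLDA1. None of the 6 tested ligands and receptors passed with limma, and 1 had an unadjusted p under 0.05. DUSP6 was 8.70 in wild type and 9.51, 9.24 and 9.55 in the clones. ETV5 was 8.28 against 8.92, 9.36 and 9.07. In both the wild type array was below the clones by more than 0.5, while the arrays of construct V2LHS_62675 lay around or among them, at 9.22 to 9.70 for DUSP6 and 9.13 to 9.21 for ETV5. Of the V2LHS_62673 clones, 8 and 9 had DUSP6 below wild type, at 7.55 and 8.34, and clone 12 had ETV5 near it, at 8.38. Without clone 1 the list had 8 called genes, with median centring 3, and without clone 2 SPRY1 did not pass (limma adjusted p = 0.0887). In BMP and TGF-beta signalling 2 of 16 genes fell, beside 3.56% of all genes tested. ID1, a BMP target that blocks differentiation factors, was 10.01 against 10.83, 10.84 and 11.04, and the ligand TGFB2 was 8.73 against 9.38, 9.65 and 9.63. Of 18 interferon response genes 4 fell, with a list median of -0.14. IFIT3 was 5.48, under the filter level, against 6.32, 6.44 and 6.53, and was tested through the clones. OAS1, a sensor enzyme of viral RNA, was 8.38 against 8.96, 9.01 and 9.00, and IRF9, a subunit of the interferon-activated factor, was 7.40 against 7.97, 8.14 and 8.19. IFIT1 differed by -0.48 and did not pass without clone 2 (limma adjusted p = 0.0981). Of 14 immediate early genes 2 fell, EGR1 by 0.81 and IER3 by 0.61, and IER3 did not pass without clone 2 or clone 3 (limma adjusted p = 0.0628 and 0.101). With median centring and with the trended, robust prior neither passed, EGR1 at limma adjusted p of 0.0565 and 0.0502.

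In DNA replication, 10 of 43 tested genes rose in wild type and none fell. The list median was 0.36, and 41 of the 43 had differences above 0. Most were of the licensing and helicase machinery, 6 of 18. MCM2, a subunit of the replicative helicase, was 9.59 in wild type and 8.90, 8.99 and 8.92 in the clones. It differed by 0.65 ± 0.13 (limma adjusted p = 0.00753), and wild type was well above the narrow range of the clones. ORC1, of the origin recognition complex, was 8.76 against 8.22, 8.16 and 7.84, and GINS3 was 9.64 against 9.16, 9.02 and 9.04. MCM4, MCM10 and CDC45 were higher by 0.57, 0.58 and 0.49. Of the polymerase genes, POLD3, a subunit of polymerase delta, was 9.04 against 8.50, 8.35 and 8.18. RFC5, of the clamp loader, and RPA2, which binds single-stranded DNA, were higher by 0.53 and 0.59. CCNE2, a cyclin of S phase entry, was 9.53 against 9.24, 8.76 and 8.50, the smallest gap of the 10. The level of the list differed among the controls, with medians of 0.13, -0.01 and -0.09 in clones 1, 2 and 3 relative to their mean. Without clone 1 the called genes were 19, and without clone 3 they were 6. Quantile normalization and median centring each gave 6, and no filter gave 5. Arrays 2 and 3 of construct V2LHS_62675 were higher than wild type, at 0.40 and 0.50, while its array 1 and clones 9 and 12 were at 0.11, 0.13 and 0.12. The part of such differences between cultures or arrays in the wild type values was not tested. PCNA and MCM7 are not among the genes tested.

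Mitosis genes had the same direction, 7 of 32 higher and none lower, with a median of 0.32. CDCA8, of the chromosomal passenger complex, was 9.78 in wild type and 8.99, 9.07 and 8.79 in the clones. It was higher by 0.83 ± 0.14 (limma adjusted p = 0.0026). BIRC5 (survivin), of the same complex, was 10.08 against 9.50, 9.13 and 9.22, and the kinase PLK1 was 10.76 against 10.12, 10.32 and 10.16. Wild type lay above each clone in all 3. The kinetochore proteins CENPE and CENPF, the checkpoint kinase TTK and the checkpoint protein MAD2L1 were higher by 0.77, 0.67, 0.59 and 0.56. CENPE lost its call with quantile normalization and with the trended, robust prior (limma adjusted p = 0.0743 and 0.184). Without clone 1 the list had 12 called genes, with quantile normalization 3 and with median centring 4. In 8 of the 32 genes wild type was above all 9 other arrays. It held that position in 730 of all genes tested (6.52%), and the position below all 9 in 804 (7.18%). Above all 9 it also stood in 3 of 43 genes of DNA replication, 2 of 21 of ribosome biogenesis and 5 of 24 of the proteasome. The 9 arrays include clone 8, with a mitosis list median of -0.54, and the empty vector clones that gave the calls. The 8 genes are therefore no separate result.

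For the lists of this paragraph, the shares over all genes tested were 3.17% higher and 3.56% lower. Of 21 ribosome biogenesis genes 5 rose, PES1, NOP16, RRP9, RRP12 and UTP20, and none fell, with a median of 0.32. NOP16, a nucleolar factor of the large subunit, was 9.48 in wild type and 8.89, 8.86 and 8.74 in the clones. UTP20, of the small subunit processome, was 8.69 against 8.20, 7.96 and 7.91. Wild type was above the clones in both, by 0.49 or more. Without clone 1 there were 8 called genes. Proteasome subunits had a median of 0.30 with 22 of 24 above 0, and 2 of them passed, PSMC2 by 0.57 and PSMD3 by 0.47. PSMD3 did not pass without clone 1 or without clone 2 (limma adjusted p = 0.0544 and 0.135), and the list had 0 called genes with quantile normalization, with no filter and in the fit of 4 groups without clone 8, but 8 with the trended, robust prior. The heat shock list had a median of 0.27 but held 1 call each way. DNAJB1, a partner of HSP70, was 10.54 against 10.16, 9.79 and 9.75, and the small heat shock protein HSPB1 was lower, at 9.30 against 9.83, 9.88 and 9.94. DNAJB1 lost its call with quantile normalization, median centring and no filter, and without clone 1, 3 genes of that list were called higher. Of 23 genes of oxidative phosphorylation 2 rose, NDUFA10 by 0.48 and COX7B by 0.62, and both lost their call without clone 2 (limma adjusted p = 0.1 and 0.0565). NDUFA10 also lost it without clone 3 (limma adjusted p = 0.0503), and without clone 1 the list had 4 called genes. Of 15 genes in the TCA cycle list 2 fell, IDH1 and IDH2, which make alpha-ketoglutarate in the cytosol and the mitochondria. IDH2 was 8.75 in wild type and 9.30, 9.44 and 9.43 in the clones. The list as a whole was not lower, with a median of 0.05 and 8 of the 15 differences above 0. IDH1 did not pass without clone 2 (limma adjusted p = 0.0998).

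**Figure D4:**
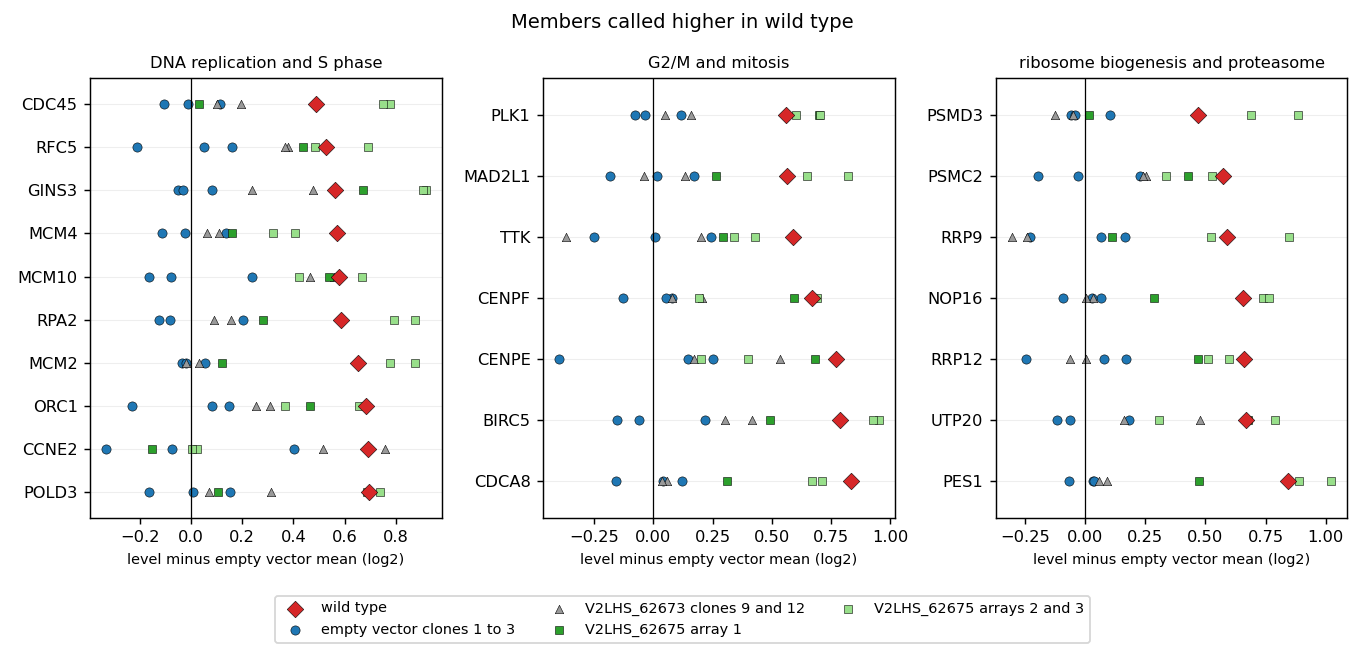
Level on each array minus the mean of the 3 empty vector clones (log2) for the genes called higher in wild type in the lists of DNA replication (left), mitosis (middle), and ribosome biogenesis and the proteasome (right); clone 8 is not drawn. Wild type lies to the right of all 3 empty vector clones in each gene, and arrays 2 and 3 of construct V2LHS_62675 (light green) are beyond it in many, as in MCM2 and PES1.

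Of 20 colon differentiation genes 1 rose and 3 fell, beside 3.17% higher and 3.56% lower among all genes tested. CA2, the carbonic anhydrase of absorptive cells, was higher, at 9.70 in wild type and 9.16, 9.01 and 8.75 in the clones. The secretory peptide TFF3 fell, at 8.37 against 9.22, 9.54 and 9.51, with the mucin MUC13 and the adhesion molecule CEACAM1, by 0.79 and 1.04. MUC13 did not pass without clone 3 (limma adjusted p = 0.0648), and CEACAM1 did not with quantile normalization (limma adjusted p = 0.0896). With quantile normalization, median centring, no filter or the trended, robust prior the list held 1 lower gene. The list median was 0.01. In the NRF2 and drug metabolism list 3 genes of 15 rose and 1 fell. MGST1, a membrane glutathione transferase, was 8.94 against 8.30, 8.07 and 7.89, the glutathione synthesis gene GCLM was higher by 0.59 and the drug efflux pump ABCB1 by 0.50, and the pump ABCC3 was lower, at 7.18 against 7.98, 8.41 and 8.63. ABCB1 lost its call without clone 2 and without clone 3 (limma adjusted p = 0.0577 and 0.0638). With quantile normalization, median centring or no filter it and GCLM were lost (limma adjusted p of GCLM 0.0537, 0.0565 and 0.0565), which leaves 1 higher gene. Of 10 lamina and nuclear envelope genes none passed with limma, and 1 had an unadjusted p under 0.05. LMNA was 10.21 against 9.94, 10.20 and 10.18, a difference of 0.10 (95% interval -0.20 to 0.40), LMNB2 differed by 0.21 (-0.07 to 0.48) and LBR by 0.11 (-0.17 to 0.40). Without clone 1, and without clone 3, 1 gene of the list passed.

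The remaining lists had few calls, beside 3.17% higher and 3.56% lower among all genes tested. Among 12 YAP targets, F3, which encodes tissue factor, was higher by 0.51 and the caveolin CAV2 lower by 0.47, and both were lost without clone 2 (limma adjusted p = 0.0524 and 0.132). RNF43 among Wnt targets, the junction protein CLDN3, the p53 target TNFRSF10B and the chemokine CXCL8 each fell by 0.52 to 0.60. Each was the only call of its list, of 14 Wnt, 22 junction and keratin, 17 p53 and 10 secretory genes. Of all genes tested 3.56% were lower, and the 4 list medians were 0.01, -0.03, -0.09 and -0.09. Those 4 calls were lost without clone 2 and without clone 3. Without clone 1 the Wnt and junction lists had 2 and 3 called genes, and without clone 3 the YAP list had 2 higher. Of 7 leukocyte genes 1 fell, LCP1, by 0.52, at 5.68 in wild type, under the filter level, and 6.17, 6.08 and 6.36 in the clones. It lost its call without clone 3 (limma adjusted p = 0.0567). No gene of the mesenchymal, endothelial or NF-kB lists passed (0 of 25 by limma, 4 of them at an unadjusted p under 0.05).

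**Figure D5:**
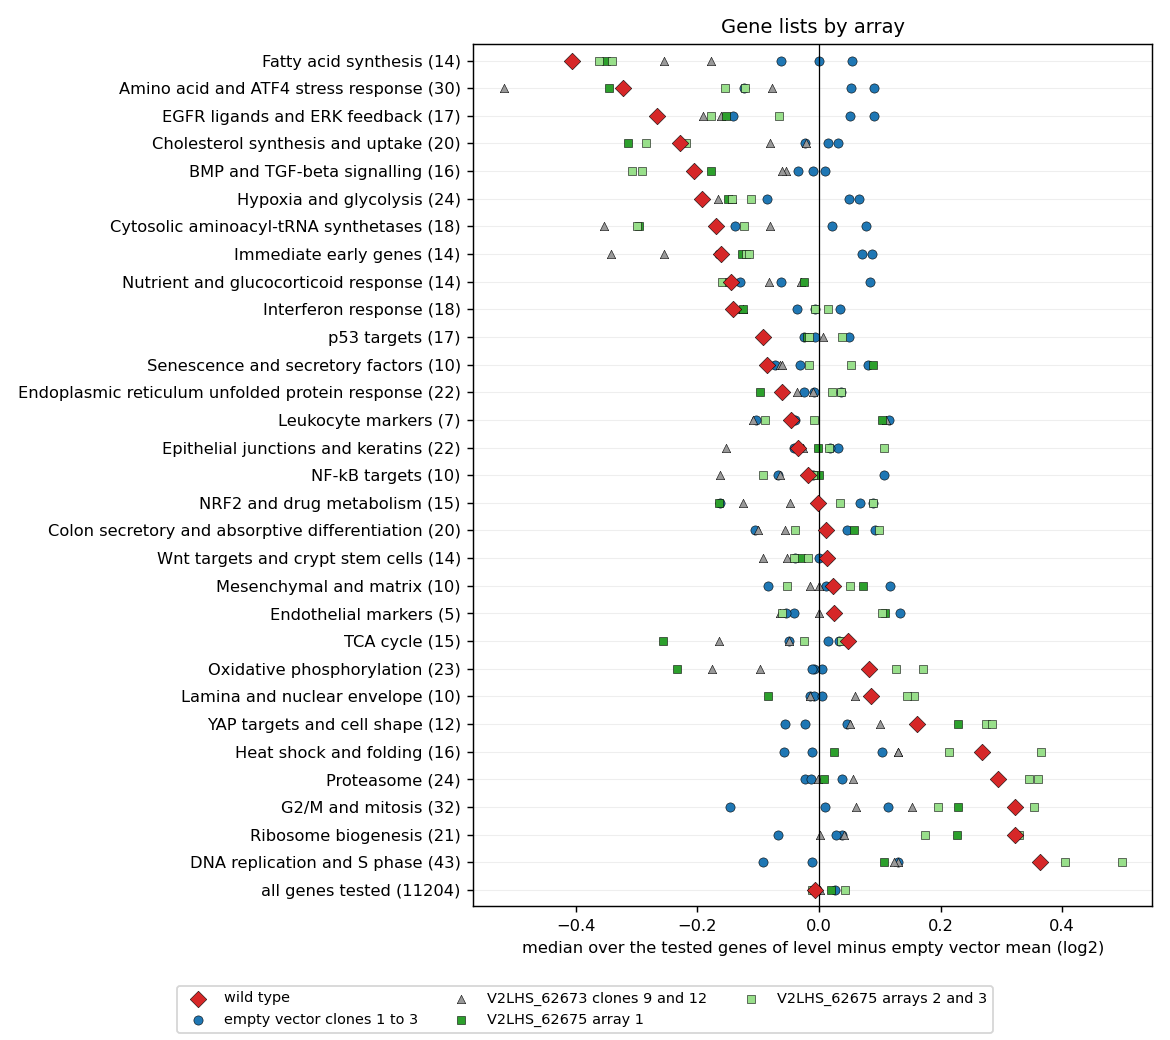
Median over the tested genes of each list of the level minus the empty vector mean (horizontal axis, log2), by array, for 30 lists (rows, with the number of genes tested) and all 11204 genes; clone 8 is not drawn. Wild type runs from -0.41 in fatty acid synthesis to 0.36 in DNA replication, and arrays 2 and 3 of construct V2LHS_62675 lie on the same side of the empty vector clones as wild type in both.

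A second comparison set the wild type array against 6 clones: the 3 with empty vector, clones 9 and 12 of V2LHS_62673, and V2LHS_62675 as the mean of its 3 arrays. It shares the empty vector clones and the wild type array with the comparison above, and it asks where wild type differed from transfected clones whether or not they carried a hairpin. Of 11198 genes none passed in either direction by limma (0% higher and 0% lower), and 857 had an unadjusted p under 0.05. Leaving out construct V2LHS_62675, 8 genes were higher and 7 lower. The higher ones were ABCF2, RRP36, PES1, EMC8, MRPL35, TSPAN8, WDR77 and MB21D2, with limma adjusted p of 0.0423. The lower ones were MRPS17, ALDH7A1, MSMO1, CYBRD1, GPR137B, SRR and BTBD8, with limma adjusted p of 0.0423 to 0.0428. Without empty vector clone 3, MRPS17 alone passed.

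By distance from the nearest of the 6 clones, the genes above were CEBPA-DT, TUBA1B, CYB5R2, KBTBD8 and SLAIN1. CEBPA-DT was 7.04 in wild type and 5.83 ± 0.29 (SD, n = 6) in the clones (limma adjusted p = 0.62). The genes below were MRPS17, ALDH7A1, KRTAP6-3, POPDC3 and ANKRD42, of which MRPS17, KRTAP6-3 and ANKRD42 were under the filter level in wild type. MRPS17 was 5.74 in wild type and 8.41 ± 0.41 (SD, n = 6) in the clones, a difference of -2.67 ± 0.34 (SE; limma adjusted p = 0.295). ALDH7A1 was 7.50 against 8.70 ± 0.18, a difference of -1.20 ± 0.17 (limma adjusted p = 0.304). POPDC3, a membrane protein of the Popeye family, was 7.41 against 8.20 ± 0.20. INSIG1 and DDIT4, far from the empty vector clones, were 9.69 ± 0.68 and 8.82 ± 1.02 over the 6 clones, and their differences of -1.05 ± 0.55 and -1.65 ± 0.83 did not pass (limma adjusted p = 0.681 and 0.671). Of all genes tested, wild type was above all 9 other arrays in 730 (6.52%) and below them in 804 (7.18%). Of the 355 genes higher than the empty vector clones 159 were above all 9, and of the 399 lower genes 128 were below them. Every called gene lay outside the 3 empty vector clones, which are among the 9. These 2 counts are therefore raised by the choice of the genes and are no separate result. At a distance of 0.5 or more from all 9, wild type was above in KBTBD8, SLAIN1 and DHX29 and below in MRPS17, KRTAP6-3, ALDH7A1 and POPDC3.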

How the data were processed

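RNA was measured in DLD-1 cells on 10 arrays. The authors deposited log2 values, 1 per probe and array; the base was read from their range, and for background correction, normalization and build the method is not given in the sources used here. Per the labels' protocols, biotin-labelled cDNA was hybridised. No scaling was added. Of the probes, 14432 name 1 gene symbol, 2408 several and 5171 none; the first kind covers 14232 genes, and 197 genes with several such probes are represented by the brightest. Genes with a mean over the samples compared under the 25th percentile, a level of 5.87, were left out (3028 genes), which leaves 11204.

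The wild type array and 3 clones entered 1 linear model (limma 3.58.1 under R 4.3.3) with a moderated two-sided test, 2 residual and 14.38 prior degrees of freedom, and p-values adjusted by Benjamini and Hochberg for all 11204 genes, called under 0.05. The p-values rest on the spread between the clones, which the model draws for each gene toward a value common to all genes. With 14.38 prior against 2 residual degrees of freedom, that common value weighs more than the gene's own spread. The genes named are the 12 genes furthest outside the clones each way among those tested, up to 4 members per list with the largest gap to the nearest clone, INSIG1, DDIT4, the lamins, and the 5 furthest from 6 clones each way; further list members were chosen after their values were seen; promoter sequences are from RefSeq. The 30 lists hold 699 genes, of which 591 have a probe and 532 were tested. Members and lists were chosen with earlier results of these data known. Depth does not apply to arrays; their number limits the precision. Alternatives were other scalings, filters, probe rules, priors and sets of samples, and leaving out each clone. In the main comparison the fits without empty vector clone 1 or 2 had 1 residual degree of freedom and an infinite prior. Every gene in them was given the same spread.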

Additional observations from a re-analysis of the deposited data

How the results depend on the processing

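The direction and the call of the named genes were followed through the alternatives. Of 146 named genes 91 were called, and 49 of these kept their call in each setting that tested them, with 1 exception. In the fit of 4 groups with all clones each of the 91 was lost (smallest limma adjusted p among them 0.477). Genes that a stricter filter, at the 50th percentile, left untested are not counted as lost there. The count of genes higher than the empty vector clones, 355, became 222 with quantile normalization, 215 with no filter on dim probes, 190 in the fit of 4 groups with clone 8 left out and 0 with all clones. Leaving out 1 empty vector clone at a time gave 278 to 602, the highest without clone 1. The count of lower genes, 399, became 220 with median centring, 216 in the fit of 4 groups without clone 8, 0 with all clones, and 294 to 607 without 1 clone, the highest again without clone 1. Against 6 clones the counts were 0 and 0. They became 1 higher gene with no filter, SH3BGRL, and ranged from 0 to 8 higher and from 0 to 7 lower genes when 1 clone was left out, the highest without construct V2LHS_62675; with clone 8 included they stayed at 0. Centring the arrays within 2 runs of chromosomes and taking clone 2 of V2LHS_62675 from part of its arrays were chosen after seeing the data. Relative to the empty vector mean, the wild type median was 0.0081 over chromosomes 1 to 8 and -0.0254 over 9 to X. Empty vector clones 1 to 3 were at -3e-04, 0.0158 and -0.0093 in the first run, and at 0.0179, -0.0518 and 0.0403 in the second. The source of these offsets was not tested. Centring within the runs gave 335 higher and 274 lower genes. Of uncalled genes, CD14 (-0.0479) ranged from -0.1407 to 0.0064 and ESAM (0.0311) from -0.0102 to 0.099 without 1 clone, so both changed sign. The cause was not tested. No paired analysis was possible because the wild type group has 1 array and shares no replicate numbers with the clones. The limits are the single wild type array, the small number of arrays, and genes whose probes name several symbols.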
